A study of Mus musculus with 11 samples.

Results

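The 6 microRNAs (miRNAs) mmu-miR-7a-5p, mmu-miR-148a-3p, mmu-miR-130b-3p, mmu-miR-340-5p, mmu-miR-504-3p and mmu-miR-1927, named from here on without the prefix of the mouse, were followed through 4 stages of cardiac macrophages. They are 6 of the 1247 miRNAs on the array and had been listed by name as peaking in Ly6Chigh cells at day 3 after cardiac injury. The array values themselves chose them, so their day 3 levels are given as a description with no test. GFP-positive macrophages came from hearts of Cx3cr1GFP/+ mice aged 2 to 3 months, in which 1 copy of the gene of the fractalkine receptor carries GFP, and every group, the uninjured one included, shares this allele. The groups were Ly6Clow/CX3CR1high cells of hearts without surgery (day 0, 2 arrays), Ly6Chigh/CX3CR1low cells at day 3 after cryoinjury (3 arrays), and Ly6Clow/CX3CR1high cells at day 7 (3 arrays) and day 30 after cryoinjury (3 arrays). Cryoinjury is a freezing lesion of the heart wall that stands for an infarct. Day 3 is the only Ly6Chigh group, so the stage and the cell population cannot be told apart wherever day 3 is compared. In these pooled-cell samples, fewer cells of a type and less RNA per cell cannot be told apart either.

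miRNAs are short RNAs cut from hairpin precursors, and each hairpin can give a mature strand from its 5′ arm (-5p) and from its 3′ arm (-3p). Loaded on an Argonaute protein, a strand pairs with messenger RNAs mainly through its seed, bases 2 to 8, and lowers their translation and stability. miRNAs with the same seed form a family with overlapping targets. After heart injury, Ly6Chigh monocyte-derived cells arrive early and are inflammatory and phagocytic, and Ly6Clow macrophages dominate later, during repair, and in the healthy heart. miR-7a is best known from neurons and hormone-secreting cells. miR-148a belongs to the miR-148 and miR-152 family, which targets the DNA methyltransferase Dnmt1. miR-130b belongs to the miR-130 and miR-301 family, which targets the nuclear receptor Pparg. The human miR-504-5p strand represses p53.

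The RefSeq table of miRNAs (GRCm38.p6) held mature sequences for 4 of the 6 miRNAs and 12 of the 14 listed relatives, which are opposite arms and same-seed miRNAs. The sequences are printed 5′ to 3′ with the seed in capitals, since the seed decides the family in which each miRNA is compared with its relatives. miR-7a-5p shares its seed with miR-7b-5p alone among RefSeq mouse miRNAs. It is encoded at chr13:58392841-58392863, minus strand, within the span of Hnrnpk, and at chr7:78888295-78888317, plus strand.
miR-7a-5p: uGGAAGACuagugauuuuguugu
miR-148a-3p lies at chr6:51269829-51269850, minus strand, within the span of Gm38821. It differs from miR-148b-3p at 2 of 22 bases and from miR-152-3p at 3 of 21, all outside the seed.
miR-148a-3p: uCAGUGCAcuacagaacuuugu
miR-148b-3p: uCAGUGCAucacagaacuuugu
miR-152-3p: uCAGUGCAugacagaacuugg
miR-130b-3p lies at chr16:17124071-17124092, minus strand, within the span of 2610318N02Rik, and the miRNA gene Mir301b is within 1000 bases of it. It differs from miR-130a-3p at 2 of 22 bases and from miR-301a-3p at 11 of 22.
miR-130b-3p: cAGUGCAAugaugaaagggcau
miR-130a-3p: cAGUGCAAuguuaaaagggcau
miR-301a-3p: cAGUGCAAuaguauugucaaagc
miR-721: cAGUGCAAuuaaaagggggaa
The seeds of miR-148a-3p and miR-130b-3p share the run AGUGCA of 6 bases, displaced by 1 position, and no other pair of seeds among the 4 shares more than 3 bases in a row. miR-340-5p was the only one of 1679 RefSeq mouse mature miRNAs with its seed.

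For the other precursors the hairpin is shown, because the arms of miR-340 and miR-504 gave different readouts. In the miR-340 hairpin (chr11:50069702-50069799, plus strand, within the span of Rnf130) the capitals mark miR-340-5p and then miR-340-3p.
Mir340: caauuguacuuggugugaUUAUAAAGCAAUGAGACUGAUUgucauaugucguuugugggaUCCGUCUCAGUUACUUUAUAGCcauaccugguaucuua
In the miR-504 hairpin (chrX:59097658-59097736, minus strand, within the span of Fgf13) the capitals mark miR-504-5p, and miR-504-3p comes from the other arm.
Mir504: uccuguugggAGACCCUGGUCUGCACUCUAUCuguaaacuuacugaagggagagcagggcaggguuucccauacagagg
The miR-1927 hairpin (chr1:160295864-160295972, minus strand, within the span of Rabgap1l) is shown with no part marked.
Mir1927: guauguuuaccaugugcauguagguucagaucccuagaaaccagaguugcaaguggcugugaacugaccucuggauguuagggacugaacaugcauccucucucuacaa

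Brightness varied between arrays. Over the 126 miRNAs that every array detected, the 75th percentile of the signal in scanner units was 55.7 and 163 for the day 0 arrays, between 805 and 1607 for day 3, between 114 and 323 for day 7 and between 1453 and 2304 for day 30. At least 290 miRNAs were detected on each array of days 3 and 30, and at most 270 on each array of days 7 and 0. Values are therefore given as log2 of the signal relative to that percentile of the same array, and day 3 is compared mainly with day 30, the group nearest to it in brightness. Day 30 replicates 2 and 3 lay 0.06 apart in log2 at the median, about the error of the scan itself, and were counted as 1 sample, which leaves 10 samples. The labels describe independent biological replicates without saying how many animals gave each. The 5 listed leukocyte miRNAs, miR-223-3p, miR-142a-3p, miR-142a-5p, miR-146a-5p and miR-155-5p, were detected on every day 3 and day 30 array. On the day 0 arrays miR-142a-5p and miR-155-5p were undetected, and 4 of the 5 were detected on every day 7 array. Of the 6 listed heart muscle miRNAs, miR-208a-3p, miR-208b-3p and miR-499-5p were undetected on all 11 arrays. The rest of that list, miR-1a-3p, miR-133a-3p and miR-133b-3p, was detected on every day 30 array. On days 0, 3 and 7, 2 of the 6 were detected on every array of the group.

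All 6 miRNAs were detected on every day 3 and every day 30 array, and none on a day 0 array. On day 7 arrays only miR-130b-3p was detected on all 3, 4 of the 6 on at least 1, and miR-340-5p and miR-1927 on none. Detection moved with brightness, which was lowest at day 0. An undetected signal is background, so an order of undetected values carries no information. The detection limit of an array was taken as the lowest signal of any miRNA detected on it. The limit of a single miRNA was not determined and may be higher, so a fold over a limit is not a lower bound.

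miR-7a-5p had 189, 72.1 and 215 scanner units on the 3 day 3 arrays, which is -2.35, -3.48 and -2.90 on the relative log2 scale. At day 30 it had 81.1, 37.2 and 45.3 units, or -4.83, -5.29 and -5.28. Every day 3 array lay above every day 30 array in relative level, although day 3 replicate 2 had less raw signal than day 30 replicate 1. The day 7 signals were 5.86 and 4.33 units on replicates 1 and 3, and replicate 2 was undetected. The mean relative level was -2.91 ± 0.57 at day 3 (SD, n = 3) and -5.06 ± 0.32 at day 30 (SD, n = 2), a difference of 2.14 or 4.42-fold. Against day 7 the difference was 3.16, and against the detection limit of day 0 the day 3 level was 7.79-fold higher.

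miR-148a-3p had 79.6, 60.0 and 174 units at day 3, or -3.59, -3.75 and -3.21 on the relative log2 scale. At day 30 it had 43.8, 20.5 and 24.3 units, or -5.72, -6.14 and -6.18. The 3 day 3 arrays lay close together and clear of the day 30 arrays. Among the day 7 arrays it was detected on replicate 1 alone, at 3.38 units. The mean level was -3.52 ± 0.28 at day 3 (SD, n = 3) and -5.94 ± 0.31 at day 30 (SD, n = 2), a difference of 2.42 or 5.36-fold. The day 3 level was 5.12-fold above the day 0 detection limit.

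miR-130b-3p had 135, 156 and 266 units at day 3, or -2.83, -2.37 and -2.59 on the relative log2 scale. The day 7 arrays, on all of which it was detected, had 16.4, 4.01 and 13.7 units, or -4.30, -4.83 and -4.25. The day 30 arrays had 94.9, 67.5 and 85.3 units, or -4.60, -4.43 and -4.36. Days 7 and 30 overlapped on the relative scale despite raw signals that did not, and day 3 stood above both. The mean was -2.60 ± 0.23 at day 3, -4.46 ± 0.32 at day 7 (SD, n = 3 each) and -4.50 ± 0.15 at day 30 (SD, n = 2). The day 3 level was 1.90 higher than at day 30, or 3.74-fold, and 1.86 higher than at day 7. It was 9.69-fold above the day 0 detection limit.

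miR-504-3p had 70.4, 101 and 119 units at day 3, or -3.77, -2.99 and -3.76 on the relative log2 scale. At day 30 it had 12.5, 13.2 and 16.9 units, or -7.52, -6.79 and -6.69. As with miR-148a-3p and miR-130b-3p, the raw signals of day 3 and day 30 were already apart. The day 30 arrays were on the whole the brighter ones. At day 7 it was detected at 3.44 and 3.84 units on replicates 1 and 3. The mean was -3.51 ± 0.45 at day 3 (SD, n = 3) and -7.13 ± 0.55 at day 30 (SD, n = 2), a difference of 3.63 or 12.3-fold. The day 3 level was 5.16-fold above the day 0 detection limit.

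miR-1927 had 50.1, 70.7 and 85.7 units at day 3, or -4.26, -3.51 and -4.23 on the relative log2 scale. At day 30 it had 10.1, 4.64 and 12.2 units, or -7.84, -8.29 and -7.16. These day 30 signals stood close to background, with a scanner error of 16.2% to 31.7% of the signal, against 7.42% to 8.07% at day 3. The mean was -4.0 ± 0.42 at day 3 (SD, n = 3) and -7.78 ± 0.08 at day 30 (SD, n = 2), a difference of 3.78 or 13.7-fold. Day 30 replicates 2 and 3, averaged as 1 sample, lay at -8.29 and -7.16, so the day 30 SD understates the spread between arrays. The day 3 level was 9.09-fold above the day 7 limit and 3.66-fold above the day 0 limit.

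In its mean level miR-340-5p went against its listing. It had 58.8, 34.5 and 130.3 units at day 3, or -4.03, -4.55 and -3.62 on the relative log2 scale. At day 30 it had 246, 99.0 and 121 units, or -3.23, -3.88 and -3.86. The groups overlapped and the mean was lower at day 3 (-4.07 ± 0.46, SD, n = 3) than at day 30 (-3.55 ± 0.45, SD, n = 2), with a difference of -0.52. It was undetected on all day 7 and day 0 arrays. Its day 3 level was 8.68-fold above the day 7 limit and 3.5-fold above the day 0 limit. Its highest mean was thus not at day 3, but the groups overlapped and the difference between day 3 and day 30 was not tested. It is described here by name alone.

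**Figure D1:**
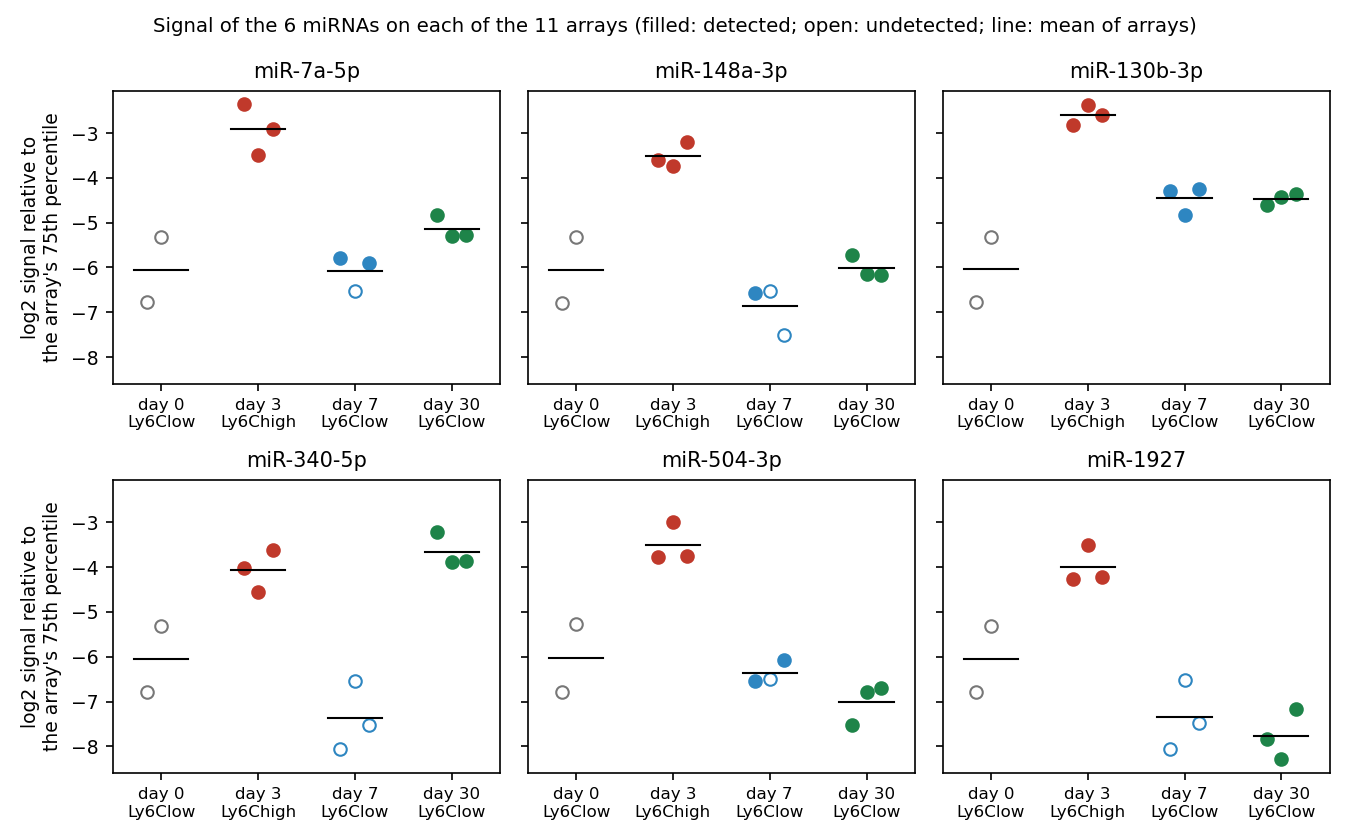
Log2 signal relative to the array's 75th percentile (y axis) of the 6 miRNAs on each of the 11 arrays, in the order of days 0, 3, 7 and 30, with filled points for detected and open points for undetected signals and a line at the mean of the arrays. For 5 miRNAs every day 3 point lies above all others, while miR-340-5p overlaps between day 3 and day 30.

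For 5 of the 6, every day 3 sample lay above every day 30 sample and above every other sample in the series. Over the 369 tested miRNAs, those detected on at least 2 arrays, the first pattern was found in 46.6% and the second in 10.6%, and since the miRNAs were chosen for this pattern nothing is read from their count. The median difference between day 3 and day 30 was 2.28 over the 6 and 0.41 over all tested miRNAs, so the typical miRNA was also somewhat higher at day 3 on this scale. Of all tested miRNAs, 30.9% were called between day 3 and day 30 by limma, 21.1% higher at day 3 and 9.76% lower (78 and 36 miRNAs). This split moved to 53 higher and 100 lower when arrays were scaled to their control features, so the balance of directions over the whole table depends on the scaling.

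The sign of the 6 differences was the same in every alternative run, which describes miRNAs chosen for their day 3 level. Of 24 alternatives, 8 or 9 left the difference exactly as reported (the filters, the fit of 2 groups and leaving out a day 0 or day 7 array among them), so 15 or 16 could move it. Over all 24, the difference between day 3 and day 30 ran from 1.20 to 2.43 for miR-7a-5p, 1.48 to 2.64 for miR-148a-3p, 0.96 to 2.02 for miR-130b-3p, 1.61 to 4.02 for miR-504-3p and 1.12 to 3.93 for miR-1927. For miR-340-5p it ran from -1.46 to -0.20. Within slide 1 and slide 2 the differences were 2.20 and 1.80 for miR-7a-5p, 2.32 and 2.41 for miR-148a-3p, 1.89 and 2.03 for miR-130b-3p, 3.76 and 3.75 for miR-504-3p, 3.59 and 4.22 for miR-1927, and -0.60 and -0.68 for miR-340-5p. The sign was thus the same on both slides for each of the 6. Slide 1 held only replicate 1 of day 30 and slide 2 only replicate 2 of day 3, so each difference rests on a single array on one side. The sizes for miR-504-3p and miR-1927 fell most when the floor for dim signals was raised to the highest array detection limit, log2 -5.12. Their day 30 signals lie under that limit. So do those of miR-148a-3p and, on replicates 2 and 3, of miR-7a-5p.

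**Figure D2:**
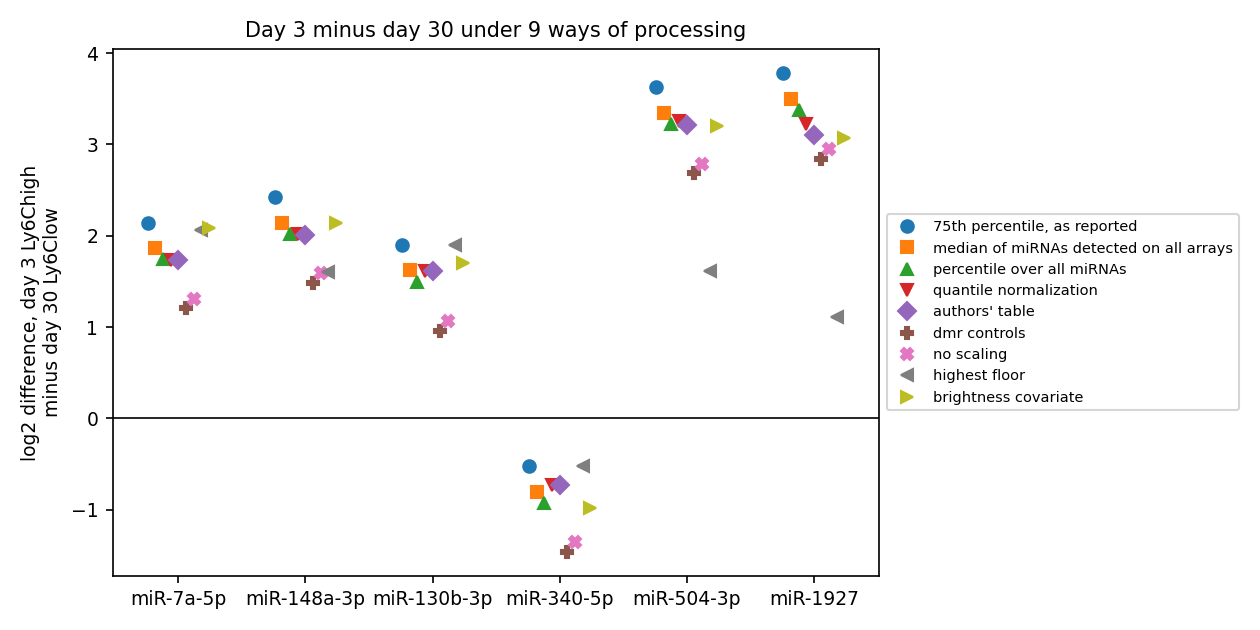
Log2 difference of day 3 Ly6Chigh minus day 30 Ly6Clow (y axis) for each of the 6 miRNAs under 9 ways of scaling or adjusting the arrays, one symbol each. miR-340-5p stays below 0 and the other 5 stay above, with values from -1.46 to -0.52 and from 0.96 to 3.78.

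Comparisons among the Ly6Clow groups set no day 3 array against another and were tested. The fit had 1 estimate of the spread, shared by all 4 groups. A listing as a day 3 peak also drew on the levels in the Ly6Clow groups. The p-values of the 6 are therefore not independent of how they were chosen. Between day 30 and day 7, limma called 1 of the 6, miR-340-5p, as higher at day 30, where 47.7% of tested miRNAs were called, 13.6% higher and 34.1% lower (50 and 126 miRNAs, against 234 and 10 with no scaling). Its day 30 level was 12.5-fold above the day 7 detection limit. The test was of its difference of 3.82 from the background values of day 7 (adjusted p = 0.000411 by limma), not of this fold. miR-340-5p was called under all 24 alternatives, with adjusted p-values from 2.72e-09 to 0.0313 by limma. The difference was 4.56 within slide 1 and 2.67 within slide 2. With array brightness as a covariate the call had its highest adjusted p, 0.0313.

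The other 5 did not pass between day 30 and day 7. miR-7a-5p differed by 1.02 (SE 0.53, adjusted p = 0.133 by limma) and miR-148a-3p by 0.93 (adjusted p = 0.154 by limma). miR-504-3p differed by -0.76, with a 95% interval of -1.89 to 0.37 (adjusted p = 0.246 by limma). miR-130b-3p differed by -0.04, with a 95% interval of -1.09 to 1.0 (adjusted p = 0.951 by limma), but it came to 2.71 with control features and 3.14 with no scaling (adjusted p = 0.00149 and 0.0018 by limma). miR-1927, undetected at day 7, gave an adjusted p of 0.548 by limma. For miR-7a-5p and miR-148a-3p all 5 other scalings (no scaling among them) and the authors' table made the call, with differences of 1.31 to 3.94 and 1.22 to 3.68. With control features or no scaling all 6 were called. Whether any but miR-340-5p was higher at day 30 than at day 7 thus rests on the scaling.

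Between day 30 and day 0, limma called 3 of the 6, where it called 56.4% of all tested miRNAs (8.94% higher and 47.4% lower, that is 33 and 175 miRNAs, against 276 and 0 with no scaling), so the count is near the background. miR-340-5p at day 30 was 5.02-fold above the day 0 limit. Its difference from the undetected day 0 values was 2.50 (adjusted p = 0.00685 by limma), with 3.56 and 1.45 within slides 1 and 2. With brightness as a covariate the difference was 4.89 (SE 1.37) in place of 2.50, with an adjusted p of 0.159 by limma. The call was also lost without day 30 replicate 1 (adjusted p = 0.0583 by limma). miR-130b-3p was 2.59-fold above the day 0 limit, and its difference from the undetected day 0 values was 1.54 (adjusted p = 0.0252 by limma). This call was lost under 6 of 24 alternatives, among them without day 0 replicate 1 and without either day 30 sample. miR-1927 was called lower at day 30 (adjusted p = 0.0296 by limma), but it was undetected at day 0, where dim arrays have a higher scaled background, and this call was not read as a fall. miR-7a-5p, miR-504-3p and miR-148a-3p had adjusted p-values of 0.158, 0.114 and 0.873 by limma.

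Between day 7 and day 0, limma called 0 of the 6 and 3.79% of all tested miRNAs (3.25% higher and 0.542% lower, that is 12 and 2 miRNAs, against 45 and 0 with no scaling). Before adjustment 3 had a p under 0.05, of which miR-340-5p and miR-1927 were undetected in both groups and miR-130b-3p was detected at day 7 alone. miR-130b-3p was 2.67-fold above the day 0 limit. Its difference from the undetected day 0 values was 1.58, with an adjusted p of 0.0997 by limma. It passed under 10 of 24 alternatives, among them all 5 other scalings. Among the Ly6Clow stages, miR-130b-3p was therefore the one of the 6 that could be measured on every array of both injured groups, and how its levels in them compare depends on the scaling, as given above.

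The relatives of the 6 were examined next, to see whether a family or a hairpin moved together. Of 14 opposite arms and same-seed miRNAs listed, 13 were on the array, 9 were tested and 4 were undetected on all 11 arrays: miR-7a-2-3p, miR-148a-5p, miR-504-5p and miR-7b-5p. miR-504-3p was therefore measured without its opposite arm. Of the 9 tested, limma called 1 higher and 1 lower at day 3 than at day 30, against 21.1% and 9.76% of all tested miRNAs.

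In the miR-148 and miR-152 family the 3 members gave different values, and 1 of the relatives passed. miR-152-3p had 12.1, 5.80 and 18.7 units at day 3, against 186, 114 and 143 units at day 30. Its mean relative level was -6.62 ± 0.44 at day 3 (SD, n = 3) and -3.64 ± 0.01 at day 30 (SD, n = 2), and it was lower at day 3 than at day 30, with a difference of -2.98 (SE 0.63, adjusted p = 0.00449 by limma) that was called under all 24 alternatives. The direction is opposite to that of miR-148a-3p, which differs from it by 3 bases. miR-148b-3p differed by 0.32 (adjusted p = 0.672 by limma), and its sign turned under 6 alternatives. Between day 30 and day 7, miR-152-3p differed by 2.78 and miR-148b-3p by 1.55 (adjusted p = 0.00339 and 0.0306 by limma). miR-148a-3p, at 0.93, did not pass. Each of these was detected on 1 of the 3 day 7 arrays, so the other day 7 values are background and the sizes are uncertain. With brightness as a covariate the differences of miR-152-3p and miR-148b-3p were larger, 3.12 (SE 1.37) and 2.50 (SE 1.03), but did not pass (adjusted p = 0.177 and 0.161 by limma). The call of miR-148b-3p was lost under 5 other alternatives, among them without either day 30 sample and without day 7 replicate 3.

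In the miR-130 and miR-301 family no tested relative passed between day 3 and day 30 on the reported scale. miR-130a-3p differed by -0.98 (adjusted p = 0.204 by limma), and was called lower at day 3 with quantile normalization, with control features and in the authors' table. miR-301a-3p differed by -0.16, with a 95% interval of -1.32 to 1.0. miR-721 differed by 1.75 (SE 0.89, adjusted p = 0.154 by limma) and passed under 6 alternatives. miR-301b-3p and miR-130b-5p, the second of them the opposite arm of miR-130b-3p, were each detected on 2 day 3 arrays and nowhere else. Between day 30 and day 7, miR-301a-3p differed by 2.76 (adjusted p = 0.00153 by limma) and miR-721 by -4.43 (adjusted p = 0.00164 by limma) on the relative scale. miR-130b-3p differed by -0.04. miR-301a-3p was detected on 1 of the 3 day 7 arrays, so its other day 7 values are background. In raw signal miR-721 had 63.2, 107 and 66.2 units at day 7, and 35.3, 26.3 and 32.4 units on the brighter day 30 arrays. With brightness as a covariate neither miR-301a-3p nor miR-721 passed. miR-301a-3p then differed by 3.91 (SE 1.01, adjusted p = 0.0682 by limma) and miR-721 by 0.72 (adjusted p = 0.635 by limma).

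The arms of the miR-340 hairpin gave differences of opposite sign between day 3 and day 30. miR-340-3p had 59.5, 60.1 and 114 units at day 3, against 58.8, 33.9 and 38.8 units at day 30. On the relative scale this was -3.86 ± 0.14 at day 3 (SD, n = 3) and -5.38 ± 0.12 at day 30 (SD, n = 2), so that it was 1.52 higher at day 3 than at day 30 (SE 0.49, adjusted p = 0.0343 by limma). The call was lost under 12 of 24 alternatives, with differences of 0.58 to 1.74, and these include all 5 other scalings, the authors' table and leaving out any 1 day 3 or day 30 sample. The sign stayed positive throughout, while that of miR-340-5p stayed negative. miR-7a-1-3p, opposite arm of miR-7a-5p, differed by 0.42 (adjusted p = 0.608 by limma), with a sign that turned under 5 alternatives.

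**Figure D3:**
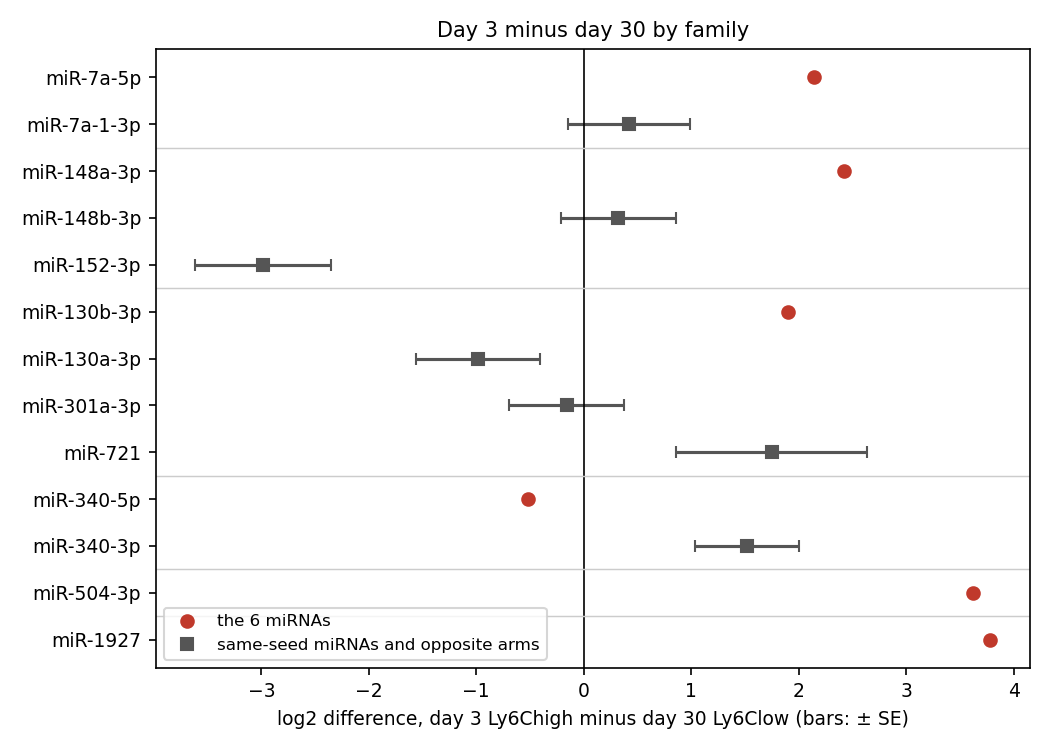
Log2 difference of day 3 Ly6Chigh minus day 30 Ly6Clow (x axis) for the 6 miRNAs (circles, as a description) and 7 of their tested relatives (squares, with bars for ± SE from the fit), grouped by family. miR-148a-3p at 2.42 and miR-152-3p at -2.98 lie on opposite sides of 0, as do miR-340-3p at 1.52 and miR-340-5p at -0.52.

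A ratio of 2 miRNAs on one array is free of any scaling of that array, so the ratios were compared between day 3 and day 30 as a description. The log2 ratio of miR-340-5p to miR-340-3p was -0.02, -0.80 and 0.19 on the day 3 arrays, against 2.07, 1.54 and 1.64 on the day 30 arrays. The groups did not overlap, and the ratio was 4.11-fold lower at day 3. The ratio of miR-148a-3p to miR-152-3p was 2.72, 3.37 and 3.22 at day 3, against -2.08, -2.48 and -2.55 at day 30, a 42.3-fold difference and the widest of the 7 ratios taken. That of miR-148a-3p to miR-148b-3p was 1.16, 1.48 and 1.57 at day 3, against -0.81, -0.46 and -0.69 at day 30, which is 4.29-fold.

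In the miR-130 and miR-301 family the ratio of miR-130b-3p to miR-130a-3p was 3.34, 4.49 and 3.20 at day 3, against 0.64, 0.98 and 0.91 at day 30, or 7.39-fold. The ratio of miR-130b-3p to miR-301a-3p was 1.93, 1.72 and 1.26 at day 3, against -0.54, -0.32 and -0.30 at day 30, or 4.17-fold. The ratio of miR-130b-3p to miR-721 overlapped, with 0.92, 1.80 and 1.95 at day 3, against 1.43, 1.36 and 1.40 at day 30. For miR-7a-5p over miR-7a-1-3p it was 3.45, 3.22 and 3.20 at day 3, against 1.60, 1.67 and 1.39 at day 30, or 3.30-fold. In all, 6 of the 7 ratios did not overlap between the groups. Over all 29403 pairs of the 243 miRNAs detected on every day 3 and day 30 array, 76.5% did not overlap, so the count is near the background and nothing is read from it. A ratio shows unequal change of the members of a pair, not that either stayed constant. Whether probes of near-identical sequences share signal was not tested.

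**Figure D4:**
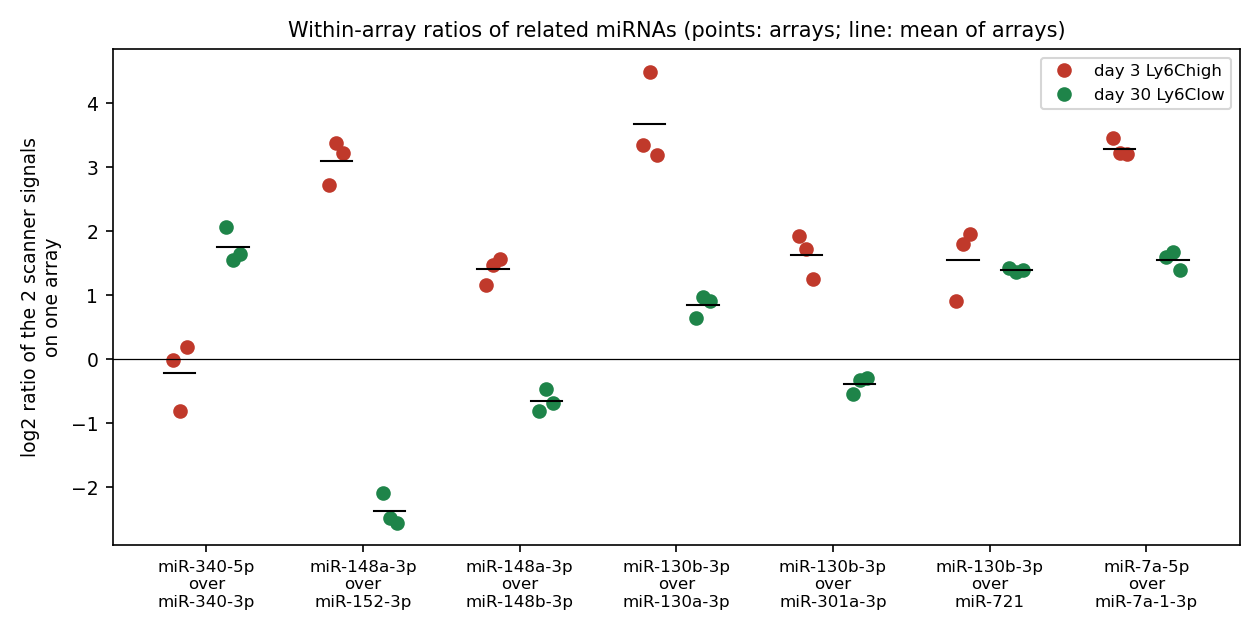
Log2 ratio of the scanner signals of 2 related miRNAs on one array (y axis) for 7 pairs, with day 3 Ly6Chigh arrays to the left of day 30 Ly6Clow arrays, points for arrays and lines for their mean. The groups are apart for 6 pairs, most for miR-148a-3p over miR-152-3p, and overlap for miR-130b-3p over miR-721. miR-340-5p over miR-340-3p is the pair among the 6 with the lower day 3 ratio.

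The 6 profiles were also compared with each other and with all tested miRNAs, by the root mean square difference over the 10 samples after centring each on its mean. Among the 6, the closest pairs were miR-504-3p with miR-1927 at 0.524 and miR-7a-5p with miR-148a-3p at 0.535. The farthest were miR-340-5p with miR-504-3p at 1.82 and with miR-1927 at 1.76. miR-504-3p and miR-1927, the closest pair, also had the widest differences between day 3 and day 30 of the 6, and miR-340-5p stood apart from the rest. All profiles share the arrays and their background, so undetected samples add to the likeness.

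The 2 miRNAs most like miR-7a-5p were miR-374c-5p at 0.580 and miR-340-3p at 0.651. For miR-148a-3p they were miR-3070-2-3p at 0.634 and miR-467a-3p at 0.653. For miR-130b-3p they were miR-93-5p at 0.545 and miR-210-3p at 0.586, with differences of 1.86 and 1.32 between day 3 and day 30. miR-93-5p belongs to the miR-106b~25 cluster and miR-210-3p is a hypoxia-induced miRNA. For miR-504-3p and for miR-1927 the same 2 came out, miR-467a-3p (0.617 and 0.325) and miR-200c-3p (0.617 and 0.406). For miR-340-5p they were miR-451a at 0.531, the abundant miRNA of red blood cells, and miR-19a-3p at 0.547. Differences to the median tested miRNA ranged from 1.78 to 2.11.

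Because miR-451a stood nearest to miR-340-5p, the erythroid list is given beside it. It summed to 0 on the day 0 arrays in relative signal, to between 0.0288 and 0.0564 on those of day 3, to at most 0.0104 on those of day 7 and to between 0.0815 and 0.106 on those of day 30, all of it miR-451a, as miR-144-3p was undetected on all arrays. miR-451a differed by -1.06 between day 3 and day 30 (adjusted p = 0.159 by limma). Other lists also moved between day 3 and day 30. The heart muscle list (3 of 6 tested, 1 called lower) summed to 0.0158 to 0.0381 at day 3 and 0.0526 to 0.0773 at day 30. The fibroblast and smooth muscle list (3 of 4 tested, 1 called lower) summed to 0.0723 to 0.0964 at day 3 and 0.173 to 0.182 at day 30. The lymphocyte miRNA miR-150-5p was at 0.0145 to 0.0384 at day 3 and 0.00455 to 0.00647 at day 30 and was called higher by 1.99 (adjusted p = 0.0289 by limma). The lists of other cell types thus moved in different directions between the groups. The leukocyte list (5 of 5 tested, 1 called lower, miR-146a-5p) summed to 14.3 to 17.9 at day 3 and 9.38 to 11.2 at day 30, and the endothelial list (0 of 2 called) to 0.306 to 0.402 and 0.248 to 0.266. Of the neuron, endocrine and liver list, miR-124-3p, miR-9-5p and miR-375-3p, the last known with miR-7a from hormone-secreting cells, were undetected on all arrays, and miR-122-5p was called lower by 1.71 at day 3 (adjusted p = 0.0432 by limma). miR-122-5p was detected on every day 30 array but not on every day 3 array, so that difference rests in part on background values. The part of other cell types in the levels of the 6 miRNAs was not tested.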

How the data were processed

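Per the labels' protocols, Cy3 was coupled to the miRNA in 100 ng of total RNA. Agilent Feature Extraction is named by the submitters' processing notes, with a version not given in the sources used here. Per the file headers, the 11 deposited gene-level files give a total gene signal, an intensity in scanner units with its error, and a detection flag, for 1247 miRNAs and 21 control features. A further table has 317 miRNAs, the 6 among them, as log2 values normalized by the authors. The files name no genome build, and coordinates come from RefSeq tables of GRCm38.p6.

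The 6 miRNAs, the lists of relatives and markers, and the processing were chosen with earlier results of these data known. Each signal was divided by the 75th percentile that the 126 miRNAs found on all 11 arrays had on its array, raised to a floor (log2 -8.53, the median over arrays of the lowest detected value) and log2-transformed. miRNAs detected on at least 2 arrays were tested (369). Day 30 replicates 2 and 3 were averaged as 1 sample: 82.1% of their miRNAs agreed within the scanner's error, against 6.72% to 45.6% for the other 9 replicate pairs. One model over 4 groups was fitted with limma 3.58.1 in R 4.3.3 (6 residual degrees of freedom), with Benjamini-Hochberg adjustment over 369 and calls at an adjusted p under 0.05. A fold over a detection limit divides one group's mean by the limit of a group in which the miRNA was undetected on every array. That limit is the lowest signal of any detected miRNA on each array, averaged in log2, and a single miRNA's own limit may be higher. No p-value tests such a fold: the fit used the scaled background signal of undetected arrays. Named miRNAs are the 6, their relatives and the 2 tested miRNAs nearest to each in profile. Slides were inferred from the array identifiers of the deposited files, as no label states them. Slide 2 held replicate 2 of every group and day 30 replicate 3, and slide 1 the other arrays. Array number limits the precision.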

Additional observations from a re-analysis of the deposited data

How the results depend on the processing

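In all, 24 alternatives were run: 5 scalings, a higher floor, 2 filters, the authors' table, 11 separate arrays, blocks, a brightness covariate, fits of the 2 groups compared and leaving out each sample. Background correction could not be varied in gene-level files. The count of the 6 called between day 7 and day 0 (0 as reported) was 1 with each of the 5 scalings, the authors' table and the brightness covariate, 3 with no filter, and 0 to 3 on leaving out a sample. Between day 30 and day 0 it was 3 as reported, 6 with the percentile over all miRNAs, control features or no scaling, 1 with the highest floor or the 2 groups compared, 0 with the covariate, and 0 to 3 on leaving out a sample. Between day 30 and day 7 it was 1 as reported, 4 with the percentile over all miRNAs, 3 with the median, quantile normalization or the authors' table, and 6 with control features or no scaling. Relatives called between day 3 and day 30 numbered 2 as reported, 1 with the percentile over all miRNAs, the median or no scaling, and 1 to 3 on leaving out a sample.

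Signs turned as follows, in the order percentile over all miRNAs, quantile normalization, control features, no scaling and authors' table. miR-130b-3p between day 30 and day 7 came to 1.58, 0.80, 2.71, 3.14 and 0.81, and to 0.25 with the median, 0.71 with the covariate and -0.23 to 0.064 on leaving out a sample. miR-148b-3p between day 3 and day 30 came to -0.082, -0.19, -0.62, -0.51 and -0.20, and to -0.018 without day 30 replicates 2 and 3. miR-504-3p between day 30 and day 7 came to 0.82 with the percentile over all miRNAs, 1.99 with control features, 2.18 with no scaling, 0.037 in the authors' table and 0.87 with the covariate. miR-7a-1-3p between day 3 and day 30 came to -0.34 with quantile normalization, -0.52 with control features, -0.41 with no scaling, -0.35 in the authors' table and -0.12 with the covariate. miR-301a-3p came to 0.11 without day 3 replicate 1, and miR-721 between day 30 and day 7 to 0.72 with the covariate. The alternatives for relatives between day 30 and day 7 were chosen after seeing the data. The cause was not tested. Calls over all tested miRNAs between day 3 and day 30 numbered 114 as reported, 53 with the highest floor, 201 with the 2 groups compared, and 29 to 160 on leaving out a sample. For day 30 against day 7 they numbered 176 as reported, 89 with the highest floor, 13 with the covariate and 110 to 208 on leaving out a sample. For day 30 against day 0 they numbered 208 as reported, 68 with the highest floor, 0 by limma with the covariate (75 at an unadjusted p under 0.05), 1109 of 1247 with no filter and 102 to 263 on leaving out a sample. Between day 7 and day 0 they numbered 14 as reported, 22 to 80 with the 5 scalings, the authors' table, the slide block or the covariate, 1011 of 1247 with no filter, 0 by limma with the 2 groups compared (24 at an unadjusted p under 0.05) and 0 to 169 on leaving out a sample (38 to 203 unadjusted).

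Same-numbered samples correlated in their deviations at -0.25 to 0.50 (median 0.067) and others at -0.50 to 0.44 (median -0.088). With so few arrays per group these overlapping ranges cannot decide whether replicate numbers pair the samples, and the reported fit used no pairing. With the replicate block on 11 separate arrays, calls between day 3 and day 30 numbered 158, against 143 on the 11 arrays without it and 114 as reported. The slide block on the 10 samples gave 149. Signal over background limits miR-504-3p and miR-1927 at day 30, and all 6 at day 0, where a fold over the limit or an undetected value stands for a level. At day 7 the same holds for miR-340-5p and miR-1927, and on part of the arrays for miR-7a-5p, miR-148a-3p and miR-504-3p. Only miR-130b-3p was detected on every day 7 array, at 4.01 to 16.4 units.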
